A study of Mus musculus with 12 samples.

Results

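Bmi1 and 8 genes that encode its paralogues and its partners in Polycomb repressive complex 1 (PRC1) were followed across 12 mouse samples. The set held Bmi1 and its paralogues Pcgf1, Pcgf2, Pcgf5 and Pcgf6, the ubiquitin ligases Ring1 and Rnf2, and the adaptors Rybp and Yaf2. The genes were chosen by name, as the Bmi1 paralogues and Ring ligase subunits, and not by their values. Earlier results of these data were known when they were chosen. They were measured by 15 of the 41174 gene probes on the array, 2 probes for each of 6 genes and 1 probe for each of the other 3. All 15 probes were well above background on at least 1 array, as were 37796 of the 41174.

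PRC1 is a chromatin complex that attaches ubiquitin to histone H2A and helps keep developmental genes silent. Its catalytic core is a Ring ligase, Ring1 or Rnf2 (Ring1b), bound to 1 Pcgf protein, and the choice of Pcgf protein sets which complex is formed. Bmi1 (Pcgf4) and Pcgf2 (Mel18) occur in canonical complexes with Cbx and Phc proteins, whereas Pcgf1, Pcgf5 and Pcgf6 occur in variant complexes that carry Rybp or Yaf2 in place of a Cbx protein. Bmi1 is known for the self-renewal of neural and blood stem cells and for the repression of the cell cycle inhibitor locus Cdkn2a.

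The study asked whether fibroblasts can be reprogrammed with Bmi1, or with activators of the hedgehog pathway, together with Oct4 (Pou5f1). One array each held embryonic stem (ES) cells of 129/Ola mice, mouse embryonic fibroblasts (MEF), and spheres of Bmi1-transduced cells made from embryonic fibroblasts and labelled as neural stem cell-like. The description of the sphere sample calls it iPS instead, and the title and source were followed here. Induced pluripotent stem (iPS) lines filled the remaining 9 arrays. From embryonic fibroblasts came 2 lines given Bmi1 and Oct4, 1 line given the hedgehog ligand Shh and then Oct4, 2 lines given oxysterol and then Oct4, and 2 lines given purmorphamine, a Smoothened agonist, and then Oct4. From adult tail-tip fibroblasts came 2 lines given oxysterol and Oct4. Oct4 was thus shared by all 9 lines, and Bmi1 was given to the Bmi1-Oct4 lines and the spheres only. The vector, its promoter, the age and strain of the fibroblast donors and the passage of the lines are not stated in the labels.

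Each RNA was hybridised once, so p-values rest on the spread between iPS lines, which may differ as clones. No replicate existed for ES, MEF, the Shh-Oct4 line or the spheres. Levels are log2 of the processed signal minus the log2 of that array's 75th percentile, so that 0 is the signal of a probe at that percentile and 1 unit is a 2-fold change. The 75th percentile ran from 1340 to 2156 signal units, and 58.4% to 80.0% of spots were well above background. The labelled cell types were checked on 8 markers each. The median level of the pluripotency markers was 3.67 in ES cells, 3.40 to 4.40 in the 9 lines, -3.97 in MEF and -4.59 in the spheres. The median of the fibroblast markers was 2.20 in MEF, -0.22 in the spheres and -3.63 to 0.17 in the lines. Of these markers 8 were above background in MEF, 6 in the spheres, 5 in ES cells and 4 to 6 in the lines. Fap and Postn were not above background in any line, nor in ES cells or the spheres. Of the neural stem cell markers, 7 of 8 were above background in the spheres, 6 of 8 in MEF and 4 to 8 of 8 in the lines. Their median level was -3.00 in the spheres and -0.47 in MEF, so the median did not bear out the neural label. Their summed linear level went the other way, at 9.09 in the spheres, 6.46 in MEF and 3.76 in ES cells. In the lines this sum ran from 4.94 to 7.71. The sum leans on the brightest spot of the list, 12320 signal units in the spheres and 5184 in MEF. The measures thus disagreed, and the neural label of the spheres was not settled by this list.

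The probes read defined stretches of each transcript, so a signal for Bmi1 need not be a signal for the whole Bmi1 RNA. The upstream Bmi1 probe lies at chr2:18748838-18748897 (mm7, plus strand) and the downstream probe at chr2:18751519-18751578, with 2621 bases between them. Because a transgene may carry the coding sequence without the end of the transcript, the probes were kept apart throughout. Upstream and downstream refer to the direction of transcription, and the exon or untranslated region under each probe was not used here. The probes of the nearest relatives are printed 5′ to 3′, with the longest run shared within each pair in capitals. Probes were compared only with each other. Their match to the transcript of the other gene was not examined, so short runs do not show that a probe is specific.

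Bmi1 upstream probe: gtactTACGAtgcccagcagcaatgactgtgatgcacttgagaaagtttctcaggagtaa
Pcgf2: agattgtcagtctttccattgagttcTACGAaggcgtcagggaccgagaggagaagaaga
Ring1 upstream probe: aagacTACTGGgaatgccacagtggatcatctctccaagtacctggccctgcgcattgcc
Rnf2 upstream probe: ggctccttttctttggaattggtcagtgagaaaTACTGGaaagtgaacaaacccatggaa

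The Bmi1 and Pcgf2 probes shared at most 5 consecutive bases, and the Ring1 and Rnf2 probes at most 6. Over all 105 pairs of the 15 probes the longest shared run was 9 bases. The Pcgf2 probe matched chr11:97800932-97801105 on the minus strand, a genomic span of 174 bases for a probe of 60. The Pcgf1 probe spanned 469 bases of chr6, from 83105534 to 83106002 on the plus strand. Both therefore cross at least 1 intron, whereas the matched span of the Yaf2 probe was 51 bases and that of each other probe 60.

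RefSeq held promoter windows for 6 of the 9 genes, and those for Bmi1 and Pcgf2 are printed because they have sequence in common although the genes lie on different chromosomes. Each window is the 250 bases before the annotated start, on the gene's strand, in the GRCm38.p6 build: chr2:18676768-18677017 for Bmi1 (plus strand) and chr11:97699649-97699898 for Pcgf2 (minus strand). Capitals mark the E-box CACGTG, the hexamer known to bind Myc family factors, and every run of at least 10 bases with 3 or more different letters that occurs in both windows.

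Bmi1 promoter: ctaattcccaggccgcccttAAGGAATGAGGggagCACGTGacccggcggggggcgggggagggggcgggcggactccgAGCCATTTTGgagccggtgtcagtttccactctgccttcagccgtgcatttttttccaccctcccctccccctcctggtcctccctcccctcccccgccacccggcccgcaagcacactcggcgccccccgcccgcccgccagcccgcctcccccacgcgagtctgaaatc
Pcgf2 promoter: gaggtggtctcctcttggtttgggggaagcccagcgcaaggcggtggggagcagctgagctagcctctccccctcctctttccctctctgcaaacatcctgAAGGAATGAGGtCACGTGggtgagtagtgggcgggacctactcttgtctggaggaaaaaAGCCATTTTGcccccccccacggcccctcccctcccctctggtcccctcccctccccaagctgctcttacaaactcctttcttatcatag

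In both windows the run AAGGAATGAGG was followed within a few bases by CACGTG and, further on, by the run AGCCATTTTG, and the order was the same. On either strand, AAGGAATGAGG was found in 0.0365% of 32851 promoter windows of this length, AGCCATTTTG in 0.103% and CACGTG in 6.02%. The runs were picked because both windows hold them, and how often other windows share such runs was not counted. The run AAGGAATGAGG occurred together with CACGTG in 3 windows, those of Bmi1, Pcgf2 and Qsox2. Of the 8 windows of these genes only those of Bmi1 and Pcgf2 held CACGTG. The 2 windows differed in base composition, with 21 CpG dinucleotides for Bmi1 and 5 for Pcgf2 against a median of 6 over all windows. These are matches of letters and not evidence of binding.

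Bmi1 itself gave opposite pictures on its 2 probes. On the upstream probe the spheres stood far above every other array, at -1.27. MEF was at -6.26 and ES cells at -5.10. The Bmi1-Oct4 lines were at -5.44 and -3.54, the Shh-Oct4 line at -4.62, the oxysterol lines at -6.46 and -4.02, the purmorphamine lines at -5.05 and -4.85, and the tail-tip lines at -3.86 and -6.16. Only 4 of the 9 lines were well above background on this probe, namely both Bmi1-Oct4 lines, oxysterol-Oct4 line 2 and tail-tip line 1. Bmi1-Oct4 line 2 was the highest of the 9 lines, and Bmi1-Oct4 line 1 lay within the range of the 7 others.

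On the downstream Bmi1 probe every array was well above background. MEF was highest at 0.37, followed by the spheres at -0.23. ES cells were at -2.10, the Bmi1-Oct4 lines at -2.78 and -1.92, the Shh-Oct4 line at -1.64, the oxysterol lines at -3.19 and -2.61, the purmorphamine lines at -2.47 and -1.98, and the tail-tip lines at -2.65 and -2.28. All 9 lines were below MEF and below the spheres, and 3 of 9 were above ES. In order of group means MEF and the spheres were followed by Shh-Oct4, ES, purmorphamine-Oct4 (-2.22), Bmi1-Oct4 (-2.35), tail-tip (-2.46) and oxysterol-Oct4 (-2.90). From ES to oxysterol-Oct4, neighbouring groups overlapped in their lines' values.

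**Figure D1:**
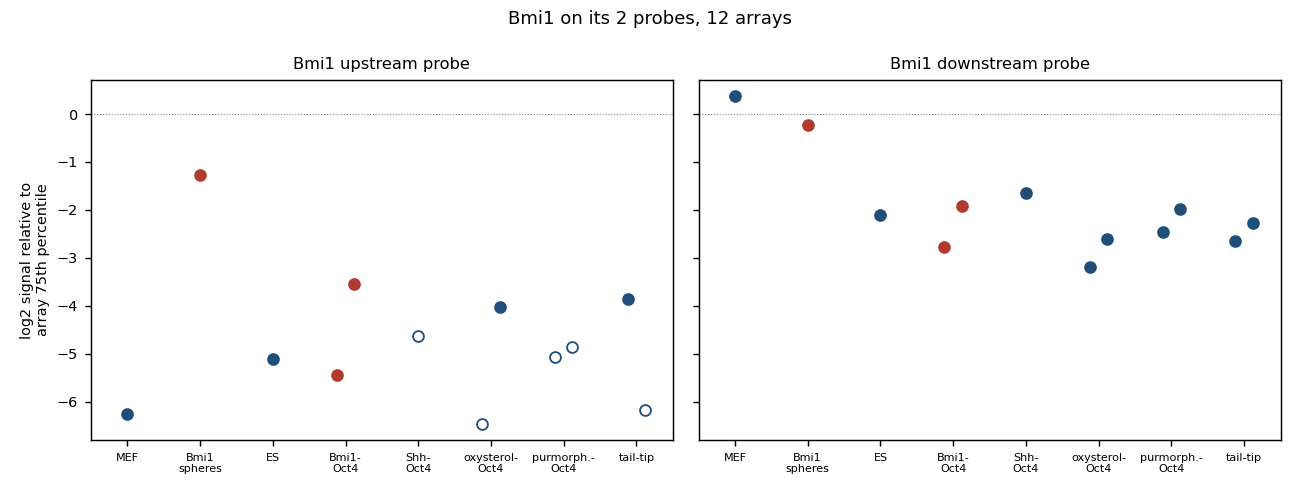
Level of Bmi1 on the upstream (left) and downstream (right) probe, in log2 units relative to each array's 75th percentile, with 1 point per array, red for samples given Bmi1, and open points for spots not well above background. The spheres stand alone at -1.27 on the upstream probe, whereas MEF at 0.37 and the spheres at -0.23 lie above all 9 iPS lines on the downstream probe.

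Against MEF, Bmi1 fell by 2.76 log2 units in the iPS lines on the downstream probe (SE 0.563, limma adjusted p = 0.0135, 9 lines against 1 array). The upstream probe gave a difference of 1.37 (SE 0.991, adjusted p = 0.404), with 8 of 9 lines above MEF. Within the slide that carried MEF, ES and both Bmi1-Oct4 lines, and equally with slide as a fixed block, the downstream difference was -2.72, with an adjusted p of 0.211 and 0.067, so that the call was lost in both. Both fits take the difference from the 2 Bmi1-Oct4 lines, the only lines on that slide.

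To ask whether samples given Bmi1 carried relatively more upstream signal, the downstream level was subtracted from the upstream level within each array. This gap was -2.66 and -1.63 in the Bmi1-Oct4 lines and -1.04 in the spheres. In the 9 other arrays it ran from -6.63 in MEF to -1.22 in tail-tip line 1. The mean was -1.78 ± 0.820 (SD, n = 3) against -3.09 ± 1.57 (SD, n = 9), a difference of 1.32 that an exact two-sided permutation test over 220 splits did not separate (p = 0.136, the smallest possible being 0.00909). Both sides of this test pooled cell types, spheres and iPS lines against MEF, ES and 7 iPS lines. Bmi1 and cell type therefore cannot be told apart in it. The Bmi1-Oct4 lines alone differed from the 7 other lines by 0.46 (exact permutation p = 0.611), in a test whose smallest possible p is 0.0556 and which therefore could not pass. The gap in MEF is that of an upstream spot of 24.6 signal units. On 5 of the 9 other arrays the upstream spot was not above background. Those gaps use the measured levels, not raised to the array's floor, and are uncertain in size. With normexp background correction the difference was 0.55 (exact permutation p = 0.427), and without the spheres it was 0.95.

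Among the paralogues, Pcgf2 (Mel18), the closest relative of Bmi1 and a subunit of the same canonical complexes, spanned the widest range over the lines of any of the 15 probes. MEF was at -6.51, ES cells at -5.06 and the spheres at -3.86. The lowest signals well above background on the MEF and ES arrays were -6.85 and -5.36. Both references were thus near the floor, and the sizes of differences from them are uncertain. The lines ran from -3.19 in Bmi1-Oct4 line 2 through a median of -1.12 to 1.60 in purmorphamine-Oct4 line 1, and all 9 were above both MEF and ES. The remaining lines were at -2.55 in Bmi1-Oct4 line 1, -1.12 in the Shh-Oct4 line, 0.46 and -2.80 in the oxysterol lines, -0.16 in purmorphamine-Oct4 line 2, and -0.64 and -1.45 in the tail-tip lines. The difference from MEF was 5.42 log2 units (95% interval 2.06 to 8.77), just short of the threshold after adjustment (adjusted p = 0.0504). It passed in 8 of 21 other settings, with adjusted p-values from 0.0297 to 0.194, and was 3.64 on the MEF slide and 3.53 with normexp background correction. The difference from ES was 3.96 (95% interval 0.61 to 7.32, unadjusted p = 0.0248, adjusted p = 0.934).

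Pcgf5, a subunit of variant complexes, also disagreed between its probes. On the upstream probe, chr19:36156443-36156502 (mm7, plus strand), MEF was at -1.05, the spheres at 1.24, ES cells at 2.68 and the lines from 1.45 through a median of 3.83 to 5.42. Pcgf5 rose there by 4.78 log2 units over MEF (SE 1.20, adjusted p = 0.0327), with all 9 lines above MEF. The spot was saturated in 3 lines, so their levels are lower bounds. The call was lost without purmorphamine-Oct4 line 2 (adjusted p = 0.0504) and without tail-tip line 1 (adjusted p = 0.0503), and with slide as a fixed block or on the MEF slide alone (3.97 in both, adjusted p = 0.124 and 0.152).

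The downstream Pcgf5 probe lies 4812 bases further on and was designed to an expressed sequence tag rather than to the RefSeq transcript. On it MEF was highest at -1.08, the spheres were at -1.51, and the lines ran from -4.51 through a median of -3.20 to -2.55. ES cells, the Shh-Oct4 line and purmorphamine-Oct4 line 1 were not above background. All 9 lines were below MEF, with a difference of -2.41 (SE 0.813, adjusted p = 0.0932). Not 1 of the 9 lines was on the same side of MEF on both Pcgf5 probes.

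Pcgf6, which pairs with the Mga and E2f6 repressors, rose on its downstream probe by 2.61 log2 units over MEF (SE 0.645, adjusted p = 0.0314). MEF was at -3.81, the spheres at -1.86, ES cells at 0.53 and the lines from -2.48 through a median of -0.96 to -0.36. All 9 lines were above MEF and all 9 were below ES, with a difference from ES of -1.73 (95% interval -3.16 to -0.30, unadjusted p = 0.0222, adjusted p = 0.898). With slide as a fixed block or on the MEF slide alone the difference from MEF was 2.34 and the call was lost (adjusted p = 0.099 and 0.194), as it was with quantile normalization (2.14, adjusted p = 0.0605). The upstream Pcgf6 probe, 11713 bases away, varied little: it was at -3.29 in MEF, -3.23 in ES, -3.03 in the spheres and -3.49 to -2.02 in the lines, a difference of 0.61 from MEF (adjusted p = 0.525).

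Pcgf1, which forms the variant complex with Bcor and Kdm2b, did not differ from MEF beyond the spread of the lines, with a difference of 0.33 (95% interval -2.49 to 3.15). MEF was at -0.997, ES cells at -0.09 and the spheres at -2.65, the lowest of the 12 arrays. The lines ran from -2.09 through a median of -0.87 to 2.42, and the highest, oxysterol-Oct4 line 1, stood well above the next, at -0.12.

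**Figure D2:**
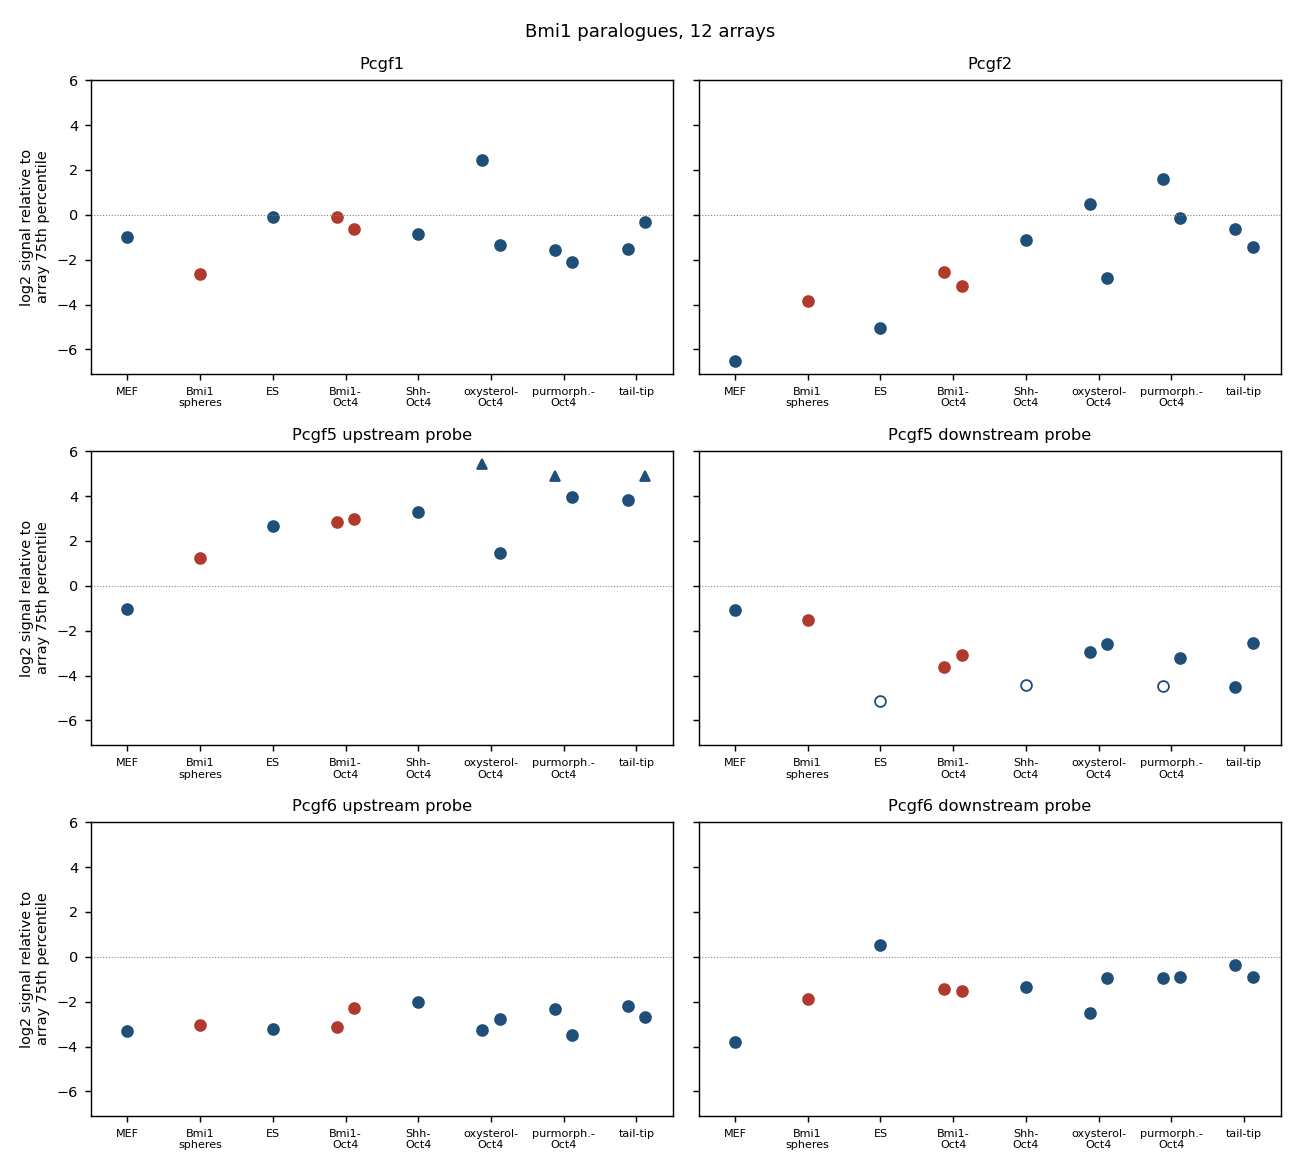
Levels of the Bmi1 paralogues Pcgf1, Pcgf2, Pcgf5 and Pcgf6 on each probe and array, in log2 units relative to the array's 75th percentile, with red points for samples given Bmi1, open points for spots not well above background and triangles for saturated spots. Pcgf2 is lowest in MEF and ES, the Pcgf5 probes place MEF at opposite ends, and 1 oxysterol line stands alone at 2.42 for Pcgf1.

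Of the catalytic subunits, Rnf2 rose on its upstream probe and Ring1 did not pass on either. The upstream Rnf2 probe was at -5.14 in MEF, -0.27 in ES and -1.36 in the spheres. The lines ran from -2.86 through a median of -1.44 to 0.42, all above MEF. The difference from MEF was 3.58 log2 units (SE 0.970, adjusted p = 0.0448) and 3.50 on the MEF slide, where the call was lost (adjusted p = 0.168), as it was with slide as a fixed block (adjusted p = 0.135). It was also lost with normexp background correction (2.66, adjusted p = 0.0624) and quantile normalization (2.96, adjusted p = 0.103). The call did not hold either when any 1 of 6 lines was left out, both Bmi1-Oct4 lines, oxysterol-Oct4 line 2, both purmorphamine lines or tail-tip line 1, where the adjusted p ran from 0.0605 to 0.0683. The downstream Rnf2 probe, 1432 bases away, was at -1.43 in MEF and from -1.98 to 0.61 in the lines, a difference of 1.15 (adjusted p = 0.388).

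Ring1 was the gene whose 2 probes followed each other most closely. The root mean square difference between its centred probe profiles over 12 arrays was 0.49 log2 units, against 1.02 for Pcgf6, 1.45 for Bmi1, 1.51 for Rnf2, 1.55 for Rybp and 2.60 for Pcgf5. On the downstream probe Ring1 was at -3.15 in MEF, -0.55 in ES, -0.47 in the spheres, and -0.41 and -0.82 in the Bmi1-Oct4 lines. The Shh-Oct4 line was at -3.30, the oxysterol lines at -1.81 and -0.88, the purmorphamine lines at -2.45 and -3.18, and the tail-tip lines at -0.77 and -1.90. The Shh-Oct4 line and purmorphamine-Oct4 line 2 were thus at the MEF level. The Bmi1-Oct4 lines, the spheres, oxysterol-Oct4 line 2 and tail-tip line 1 were near ES. On the upstream probe the spheres were highest at -0.74, followed by both Bmi1-Oct4 lines at -1.28 and -1.29 and oxysterol-Oct4 line 2 at -1.32. The Shh-Oct4 line was lowest there at -4.36, not above background. The iPS lines as a class differed from MEF by 1.43 on either probe (adjusted p = 0.38 and 0.412).

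The adaptors Rybp and Yaf2, which are alternative partners of the Ring ligases, lay on opposite sides of MEF. Rybp on its upstream probe was not above background in MEF (-7.14). It was at -4.43 in the spheres, -1.57 in ES and from -2.17 through a median of -1.61 to -0.32 in the lines, with a mean of -1.44. Rybp was at least 42.6-fold higher in the lines than in MEF (adjusted p = 0.000595). This bound sets the mean of the lines against the lowest signal well above background on the MEF array. As fitted, the difference was 5.70 log2 units, and it was 3.36 with normexp background correction (adjusted p = 0.00415). With slide as a fixed block it was 5.60 (adjusted p = 0.00268), and on the MEF slide alone the adjusted p was 0.149. On the downstream probe, 3045 bases away, Rybp was at -3.15 in MEF and from -2.92 to 0.18 in the lines, all 9 above MEF, a difference of 2.27 (adjusted p = 0.158).

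Yaf2 was highest in the spheres at 0.80 and in MEF at 0.47. ES cells were at -2.57 and the lines ran from -3.49 through a median of -1.88 to -1.41, all 9 of them below MEF. The difference from MEF was -2.58 log2 units (95% interval -4.29 to -0.87), short of the threshold (adjusted p = 0.064). It passed in 2 of 21 other settings.

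**Figure D3:**
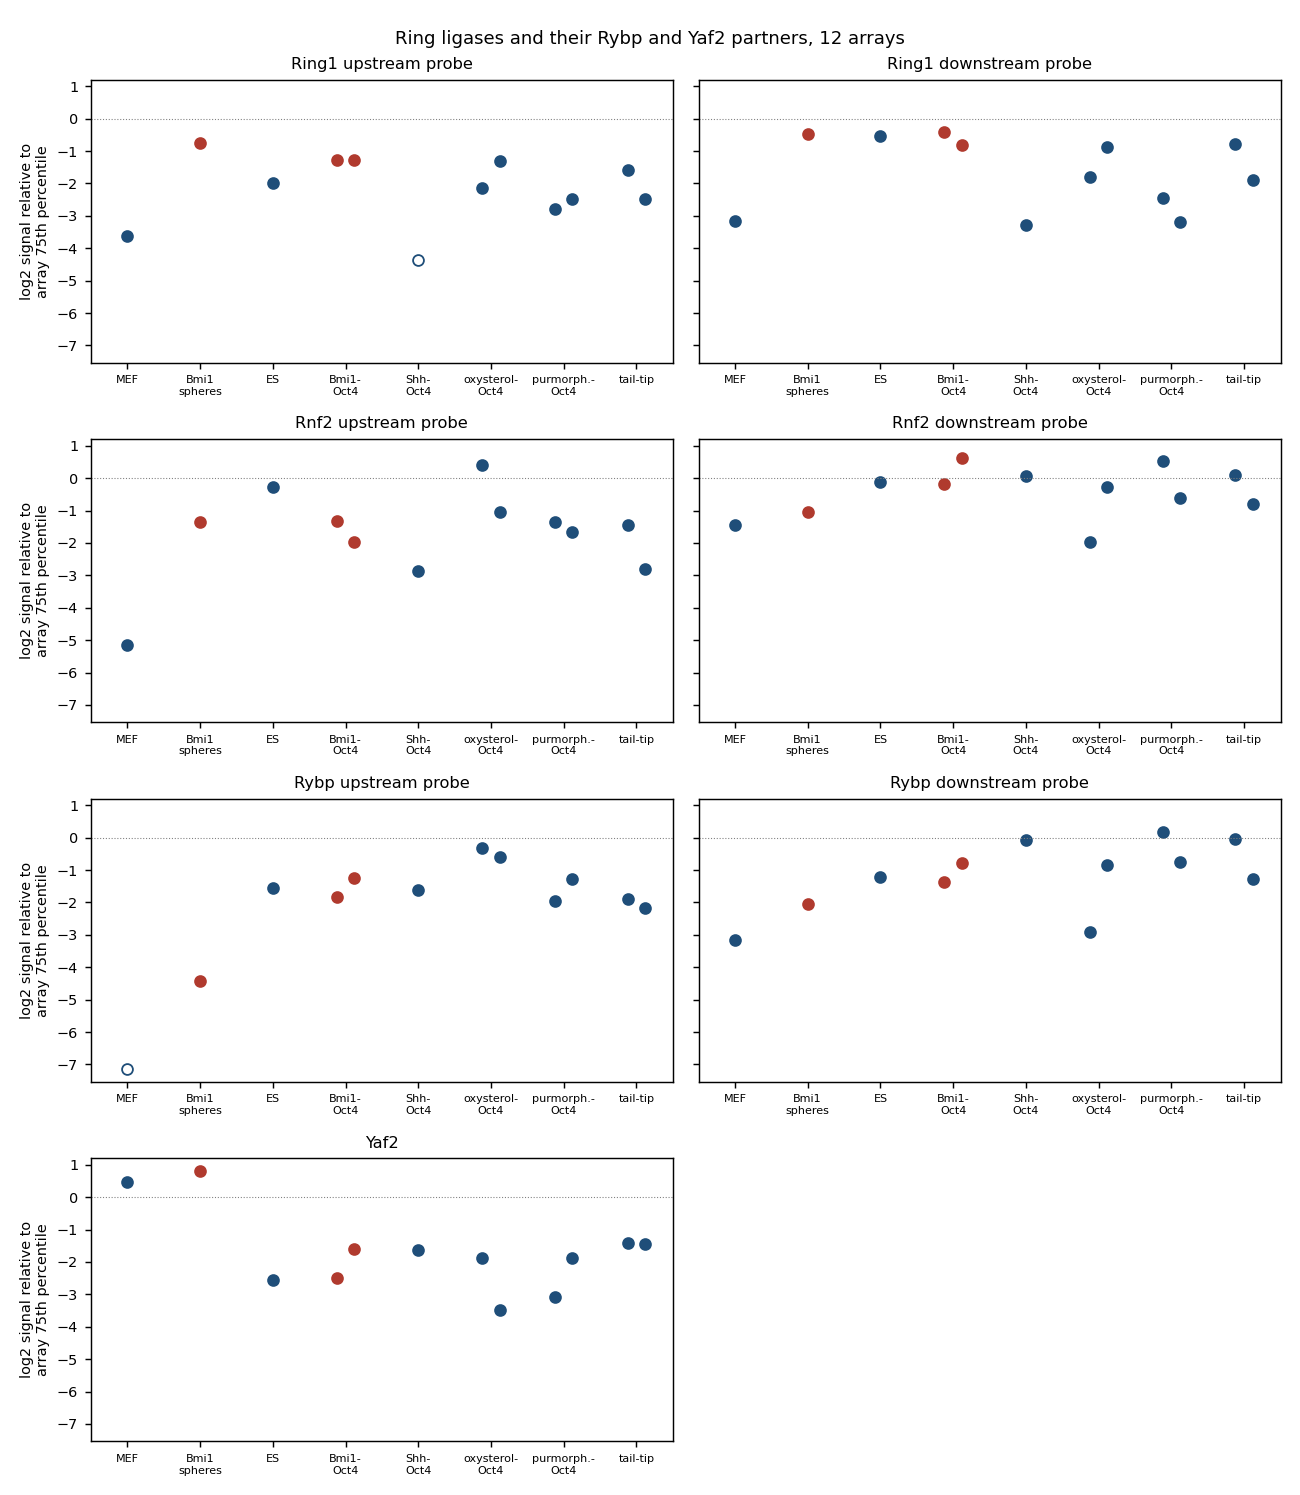
Levels of Ring1, Rnf2, Rybp and Yaf2 on each probe and array, in log2 units relative to the array's 75th percentile, with red points for samples given Bmi1 and open points for spots not well above background. Rybp is lowest in MEF on both probes, and Yaf2 is highest in the spheres and MEF. For Ring1 the Bmi1-Oct4 lines, the spheres, oxysterol-Oct4 line 2 and tail-tip line 1 are near the top.

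In all, 4 of the 15 probes rose against MEF and 1 fell, whereas over all 37777 probes tested 6.86% rose and 2.38% fell. The median difference was 1.43 over the 15 probes and 0.43 over all probes. MEF was below all 9 lines on 6 of 15 probes (30.2% of all probes) and above them on 3 (17.7%). Without purmorphamine-Oct4 line 2, or without tail-tip line 1, only 2 probes rose. Fibroblast markers moved with this comparison: their summed linear level was 105.1 in MEF and 3.30 to 37.9 in the lines, and their part in these differences was not tested. In bulk samples fewer cells of a type and less RNA per cell cannot be told apart.

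**Figure D4:**
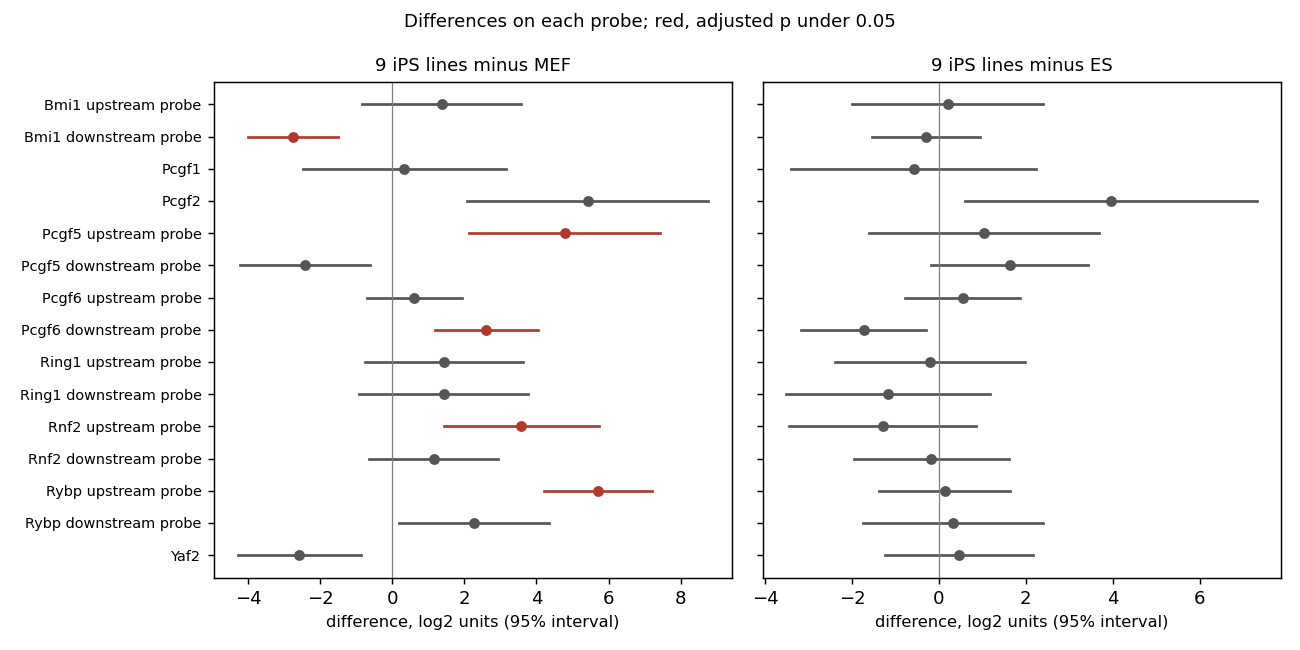
Difference of the 9 iPS lines from MEF (left) and from ES (right) on each of the 15 probes, as log2 units with 95% intervals from limma, red where the adjusted p passed the threshold of 0.05. Against MEF, 4 probes rose and Bmi1 fell on its downstream probe, and against ES no probe passed. For Rybp the MEF signal was not above background, and its point is the fitted value.

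Against ES cells no probe of these genes passed, in limma with adjustment over 37742 probes. Over all probes 0.0053% rose and 0.0238% fell, and 1695 had an unadjusted p under 0.05, among them Pcgf2 and the downstream Pcgf6 probe. ES was below all 9 lines on 2 of the 15 probes, Pcgf2 and the downstream Pcgf5 probe (9.49% of all probes), and above them on 1, the downstream Pcgf6 probe (8.68%). The downstream Pcgf5 probe was not above background in ES, the Shh-Oct4 line and purmorphamine-Oct4 line 1. On that probe the lines were higher than ES by 1.63 log2 units (95% interval -0.17 to 3.43). This is the fitted value and not a bound. The median half-width of the 95% intervals over all probes tested was 1.86 log2 units, so on a typical probe a smaller difference could not have been separated from the spread of the lines. These intervals are not adjusted for the number of probes, and a call needed more. Pcgf2 at 3.96 (95% interval 0.61 to 7.32) did not pass.

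The Bmi1-Oct4 lines were next set against the 7 lines given a hedgehog activator, as the mean of the former minus the mean of the 4 other group means. No probe of the 15 passed, and over 37709 probes 0% rose and 0% fell by limma, with 3777 at an unadjusted p under 0.05. Bmi1 differed by 0.46 (95% interval -1.78 to 2.71) on the upstream probe, where it was 1.41 without Bmi1-Oct4 line 1 and -0.48 without Bmi1-Oct4 line 2. It differed by -0.04 (95% interval -1.05 to 0.97) on the downstream probe. The values nearest to a call were those of Ring1, 1.40 (SE 0.426, unadjusted p = 0.0153, adjusted p = 0.294) upstream and 1.59 (SE 0.497, unadjusted p = 0.0174, adjusted p = 0.314) downstream. Without the Shh-Oct4 line the upstream difference was 0.85. On the upstream Ring1 probe both Bmi1-Oct4 lines (-1.28 and -1.29) were above all 7 others, of which the highest was at -1.32, as on 2.24% of all probes. On the downstream Ring1 probe tail-tip line 1 (-0.77) lay between them, and on no probe of the 15 were both below all 7 (7.18%). Pcgf2 differed by -2.22 (SE 0.930, adjusted p = 0.506). Both Bmi1-Oct4 lines were on 1 slide and the 7 others on the remaining slides, so the factor and the slide cannot be told apart. An F test among all 5 groups of lines passed on none of the 15 probes (0% of all probes, 3435 at an unadjusted p under 0.05), and again both Ring1 probes had the smallest p of the 15, at 0.0201 and 0.0331 before adjustment and 0.405 and 0.484 after.

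The spheres and MEF were compared as 1 array against 1, with no test. The spheres were at least 2-fold higher on 9 of 15 probes (33.1% of all probes) and lower on 1, that of Pcgf1 (18.4%). The upstream Bmi1 probe differed most, by 4.98 log2 units or 31.7-fold, and the downstream Bmi1 probe by -0.60. Rnf2 on its upstream probe was 13.8-fold higher, Ring1 7.39-fold and 6.40-fold on its 2 probes, Pcgf2 6.28-fold and Pcgf5 on its upstream probe 4.91-fold. The downstream probes of Rnf2 and Pcgf5 did not follow: Rnf2 was 1.31-fold higher there, and Pcgf5 differed by -0.42 log2 units. In MEF the upstream Bmi1 probe (-6.26) and Pcgf2 (-6.51) were near that array's lowest signal well above background (-6.85). The fold values of these 2 probes are therefore uncertain in size. The arrays were on different slides, so sample and slide cannot be told apart. ES cells, on the same slide as MEF, were at least 2-fold higher than MEF on 10 probes (26.3% of all probes) and lower on 3 (22.1%), those of Yaf2 and of Bmi1 and Pcgf5 downstream. The largest such difference was that of Rybp upstream, at least 38.9-fold, followed by Rnf2 upstream at 29.3-fold and Pcgf6 downstream at 20.3-fold. The other probe of each of these genes gave less: Rybp 3.86-fold, Rnf2 2.51-fold and Pcgf6 1.05-fold. These counts share the MEF array with those of the iPS lines.

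Other Polycomb genes were read on their brightest probe in the same fits. Of 23 other PRC1 subunits, 2 rose against MEF and none fell, with a median difference of -0.04 against 0.44 over all genes. Over the brightest probes of all 25401 genes tested, 7.53% rose and 2.26% fell, so the share of PRC1 subunits that rose was near that of all genes. The 2 were Cbx7, a chromodomain reader of methylated histone H3, at 5.64 log2 units (SE 0.437, adjusted p = 3.73e-05), and Phc1, a canonical scaffold subunit, at 5.69 (SE 0.573, adjusted p = 0.00021). Of 11 subunits of PRC2, the complex that methylates histone H3, 4 rose and none fell, against the same 7.53% of all genes that rose, with a median of 1.08. They were Mtf2 at 3.48 (SE 0.399, adjusted p = 0.000476), Jarid2 at 3.08 (SE 0.432, adjusted p = 0.0017), the methyltransferase Ezh2 at 2.48 (SE 0.427, adjusted p = 0.00561) and its cofactor Suz12 at 1.63 (SE 0.449, adjusted p = 0.0481). Jarid2 was saturated in all 9 lines and Mtf2 in 4, so these 2 differences are lower bounds. None of 9 H2A deubiquitinases passed (median 0.08).

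None of 4 cell cycle inhibitor genes known as Polycomb targets passed against MEF either, with a median of -2.81. Cdkn2a, the locus through which Bmi1 is known to act on senescence, was at 0.33 in MEF, -3.12 in ES and -9.09 in the spheres, under that array's floor of -6.94, and differed by -3.13 in the lines (SE 1.93, adjusted p = 0.328). Between the Bmi1-Oct4 and the hedgehog-activator lines Cdkn2a differed by -3.72 (SE 0.992, adjusted p = 0.22). No gene of these 4 lists passed against ES (0.00788% of all genes rose and 0.0197% fell) or between the Bmi1-Oct4 and the other lines (0% each way).

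Genes with the most similar profiles were sought among 17333 genes, by the root mean square difference of profiles centred on their own means over the 12 arrays, as a description. For the downstream Bmi1 probe they were Srgap3 (0.35 log2 units), Derl1 (0.36) and Olfr212 (0.37), and for the upstream probe Best3 (0.62), E2f8 (0.75) and Tns4 (0.76). The 2 lists for Bmi1 had no gene in common. Lists of 3 out of 17333 genes are too short for that to tell the probes apart. For Pcgf2 the nearest were Olfr1316, Acer2 and Tcf23, at 1.04 to 1.05, although Pcgf2 itself varied by 2.25. For Rnf2 they were Supt20, Spag5 and Dars (0.56 to 0.58) on the upstream probe and Stra6, Igf2bp1 and Ccnj (0.25 to 0.27) on the downstream probe. Olfr212 was above background on 2 arrays, and Best3 and Tns4 on 4 each.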

How the data were processed

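RNA of 12 samples was hybridised to 12 one-colour Agilent arrays, 1 each, on 3 slides. The deposited intensity values are processed signals written by Feature Extraction 9.5.3.1 after background subtraction, per the file headers, and the flags for spots well above background, saturated or outlying come from the same deposited files. Further upstream steps are unstated in the labels and headers.

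Outlier spots were left out, spots of a probe averaged as log2 signal, and the array's 75th percentile subtracted. Probes were named through the accession (23082), the symbol or a synonym in a RefSeq table (9655), or kept their deposited name (8437). Probe positions are in mm7. Probes well above background on at least 1 array were fitted in limma 3.58.1 (R 4.3.3) with 4 classes (iPS, ES, MEF, spheres) or, between iPS groups, 8 groups, with Benjamini-Hochberg adjustment over all probes and a threshold of 0.05. Single-array groups borrowed the spread of the iPS lines. The fit was tested on simulated data. Where a group was not above background, its signal was raised to the array's floor (-7.27 to -4.20) to give a bound. Promoter motifs were searched on both strands of RefSeq windows (GRCm38.p6).

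The genes and lists were chosen with earlier results of these data known. The rule for naming took every probe of the 9 genes, up to 6 passing genes of each Polycomb list, and the 3 genes of most similar profile for Bmi1, Pcgf2 and Rnf2. Cdkn2a was named after its values were seen, as were Fap and Postn. Alternatives were other background correction, scaling and filters, 1 probe per gene, an intensity trend, slide blocks, other groupings and leaving out lines.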

Additional observations from a re-analysis of the deposited data

Results flagged for a closer look

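In a group of 9 values, chance alone sets a sample apart by Dixon's criterion in about 1 of 20 groups, and 15 probes were examined. Pcgf1 was at 2.42 in oxysterol-Oct4 line 1, far above the other 8 lines, of which the nearest was at -0.12. The upstream Ring1 probe was at -4.36 in the Shh-Oct4 line, not above background, with the nearest line at -2.78. The downstream Rybp probe was at -2.92 in oxysterol-Oct4 line 1, with the nearest line at -1.36, whereas the upstream Rybp probe of the same line was the highest of the 9 at -0.32.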

How the results depend on the processing

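Against MEF, the count of probes that rose was 4, and it became 2 with quantile normalization or the 8-group model, 1 with slide as a fixed block or without the tail-tip lines, and 0 on the MEF slide alone, where 1 residual degree of freedom was left. Leaving out 1 line at a time gave 2 to 5. The count that fell was 1, and it became 3 with normexp background correction, 2 when a probe had to be above background on at least 6 arrays, and 0 with slide as a fixed block or on the MEF slide alone. Leaving out 1 line at a time gave 1 for probes that fell. No difference changed sign while called. Of 309 single-probe values against MEF, 271 kept their side of the threshold and their sign, 25 lost the call and 12 gained it. Quantile normalization moved the median difference of all probes by -0.345 and normexp by -0.101. Cause was not tested.

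Clone numbers did not pair the lines: deviations of equal numbers correlated between -0.151 and 0.219 over 6 pairs of groups. With the clone number as a replicate block, 0 of 15 probes passed between the Bmi1-Oct4 and the other lines, as without it. With slide as a random block its correlation was -0.118. A fixed slide block could not be fitted between iPS groups. One array for each of ES, MEF and spheres limits every comparison with them. On the upstream Bmi1 probe 5 of the 9 lines were not above background.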
